A study of Mus musculus with 6 samples.

Results

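The 3 wild-type (wt) libraries of the series are described here, out of 6 libraries in all. They were selected by their genotype label, hnRNPL wild-type, and no measured value entered the choice. Each library holds RNA from the sorted Lin- cKit+ fetal liver (FL) cells of 1 C57BL/6 embryo at embryonic day 14.5 (E14.5), and the embryos are called wt embryo 1, 2 and 3 (the numbers are names and give no order). The labels give fetal liver cells as the source but whole embryo as the tissue, whereas the methods of the study name sorted FL cells. The study compared these embryos with embryos lacking hnRNP L, an RNA-binding protein that acts in splicing, in blood cells through a Vav-driven Cre. The labels name no floxed allele for the 3 wt embryos, the study elsewhere gives its wt RNA-seq samples as L fl/fl, that is with floxed hnRNP L alleles, and whether they carried the Cre transgene is not given in the sources used here. The Lin- gate excluded cells stained for B220, Ter119, CD3, Gr1, NK1.1, CD49b and CD8, and for FL cells the cocktail had no CD11b antibody. Since all 3 libraries form a single group, no test between groups was made and no p-value is given.

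At mid-gestation the fetal liver is the main site of blood formation, and stem cells expand there while most of the cells they feed are on the way to red cells. Kit, the receptor for stem cell factor, is carried by stem cells, by multipotent and myeloid progenitors and by early erythroid progenitors, and is lost as erythroid cells mature and load hemoglobin. Erythroid and myeloid fates are kept apart by opposing transcription factors, GATA1 and KLF1 on the erythroid side and PU.1 and the C/EBP factors on the myeloid side.

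Counts of reads on genes came to 55952160, 57551610 and 69882800 in wt embryos 1, 2 and 3, so that 3 reads corresponded to between 0.0429 and 0.0536 CPM (a gene's reads per 1000000 reads on genes). Of 38293 genes in the table, 19091 had no read in any of the 3 libraries and 11784 had a mean of at least 1 CPM, which is the set called measured below. The targeted gene Hnrnpl lay at 548, 554 and 549 CPM in wt embryos 1, 2 and 3 (mean 550.1 ± 3.04, SD, n = 3). Libraries differed in 2 quality measures. Aligned reads assigned to no gene feature were taken as a share of these reads plus those on genes. The share was 11.0% and 11.2% in wt embryos 1 and 2 but 15.2% in wt embryo 3. The counts do not tell whether such reads lay in introns or between genes. In 6212 genes with at least 10 exon bins, the 3′-most 33.3% of the bins held a median of 49.5%, 55.4% and 49.7% of the bin reads in wt embryos 1, 2 and 3, so that coverage was most shifted to the 3′ end in wt embryo 2. This went with gene length. Among genes with a mean of at least 10 CPM, the median log2 ratio of wt embryo 2 over wt embryo 1 was 0.10 in the 25% with the least exon length and -0.08 in the 25% with the most, and the ratio over wt embryo 3 was 0.08 and -0.12. The part of this shift in the differences given below was not tested.

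The labelled cell type was checked against the markers of the sort. Kit lay at 420, 509 and 682 CPM in wt embryos 1, 2 and 3, and it ranked 871 of all genes by level per exon length. This level, in TPM (transcripts per 1000000), divides reads by the length of a gene's merged exons and is used below wherever one gene is set beside another. The mRNAs of antigens that the lineage cocktail removes were mostly at the floor. No read of Cd8a, Cd8b1 or Ly6g was found in any of the 3 libraries, and Cd3d, Cd3e and Klrb1c, which encodes NK1.1, stayed under 0.1 CPM in each. An exception was Ly6c2, which encodes a Ly6C protein that the Gr1 antibody can bind, with 0.554, 43.2 and 1.53 CPM, high only in wt embryo 2. Ptprc, the CD45 gene whose B220 form marks B cells, was at 33.9, 118 and 50.7 CPM, but gene counts do not separate its forms. Itga2 (CD49b) was at 0.786, 0.504 and 1.27 CPM.

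The transcriptome was not dominated by a few genes. On average the 10 most abundant genes held 4.21% of the reads and the 100 most abundant 15.2%, and it took 1093 genes to reach 50% of the reads and 5347 to reach 90%. In all, 67 genes had a mean of at least 1000 CPM. The number of genes needed for 50% of the reads was 1001, 1135 and 1093 in wt embryos 1, 2 and 3, and the rank curves of the 3 libraries lay close together.

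**Figure D1:**
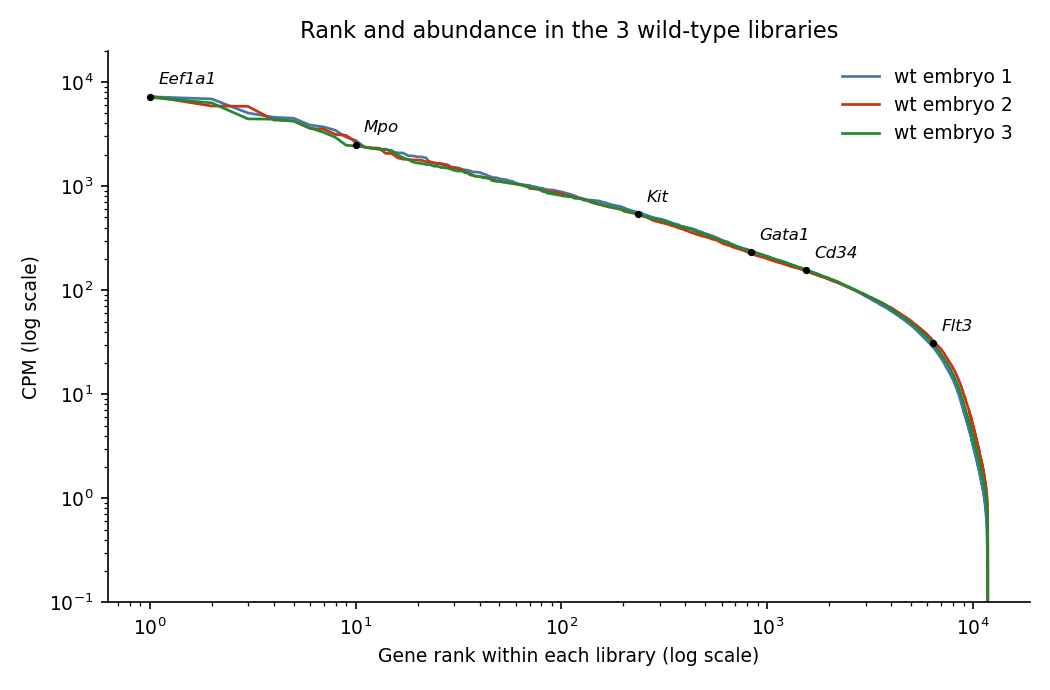
CPM of the measured genes (log axis) against gene rank within each library (log axis), with 1 line for each wt embryo. Black points mark the mean CPM of Eef1a1, Mpo and the sort or lineage markers Kit, Gata1, Cd34 and Flt3. The 3 curves nearly coincide, with the highest gene near 7230 CPM, and Mpo is the marker with the highest rank, at 10.

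Protein synthesis and respiration supplied the top of the list. Eef1a1, which delivers tRNAs to the ribosome, was the most abundant gene by reads with 7230, 7338 and 7132 CPM. The 9 genes that followed were mt-Co1, Hsp90ab1, mt-Cytb, Eef2, Ncl, mt-Nd1, Rpl4, Npm1 and Mpo. Among them are subunits of the respiratory chain, a cytosolic chaperone, the elongation factor that moves the ribosome, and nucleolin and nucleophosmin, which serve ribosome assembly in the nucleolus. Of these 10 genes only Mpo, the myeloperoxidase of neutrophil granules, differed by more than 2-fold among the embryos.

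Per length the order was different. mt-Co1 led with a mean of 14295 ± 1510 TPM (SD, n = 3), followed by mt-Cytb, mt-Nd1, Eef1a1, Rplp1, mt-Nd2, Hsp90ab1, Rpl4, Rplp0 and Rps15. Of the 100 highest genes per length, 49 encoded cytosolic ribosomal proteins. The 83 measured ribosomal protein genes together took 6.10%, 6.66% and 5.88% of the reads in wt embryos 1, 2 and 3, and none of them reached a 2-fold range. The mitochondrial genome held 2.17%, 1.93% and 2.16% of the reads. Its protein genes were split. While mt-Co1, mt-Cytb and mt-Nd1 had means of 14295, 13166 and 13115 TPM, mt-Co2, mt-Co3, mt-Nd3, mt-Atp6, mt-Atp8 and mt-Nd4l were each at 1.11 CPM or less in every library. The counting left out reads with more than 1 alignment, which made up between 39.8% and 44.7% of all entries counted. Genes with close copies elsewhere in the genome, among them nuclear copies of mitochondrial genes, ribosomal protein genes with pseudogenes, and the paired globin genes, can lose reads in this way. Shared sequence was measured only for globin pairs, and the part of this step in the low levels of some mitochondrial genes was not tested.

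Long noncoding genes took 0.708%, 0.546% and 0.549% of the reads, and protein-coding genes 98.4%, 98.5% and 98.5%. The leading noncoding genes per length were Gas5 with a mean of 729 TPM, a host gene of small nucleolar RNAs, then Cct6a, 2410006H16Rik, 1110038B12Rik and AI662270. Cct6a encodes a chaperonin subunit and enters this class only through its annotation as a processed transcript.

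Erythroid genes formed the most abundant lineage program in wt embryos 1 and 3, and in wt embryo 2 they were exceeded by the myeloid genes described further on. Among the transcription factors listed, Klf1, the activator of adult globin and many other erythroid genes, had the highest level per length with 754 TPM in wt embryo 1, 541 in wt embryo 2 and 836 in wt embryo 3. Lmo2, Ldb1, Zfpm1 and Gata1 followed, all with means between 331 and 548 TPM. LMO2, LDB1, TAL1 and GATA1 act in a common complex on erythroid enhancers, and Zfpm1 encodes the GATA1 partner FOG1. The myeloid factor Spi1 (PU.1) had a mean of 68.0 TPM, lower than each of these. Lineage factors of lymphocytes were near the floor: Pax5, Ebf1 and Gata3 each stayed under 1 CPM in each library, whereas Ikzf1 and Tcf3, which are used across blood progenitors, had means of 330.1 and 299 TPM.

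The erythroid surface genes reached similar levels. Tfrc, the transferrin receptor that supplies iron, lay at 1404, 1067 and 1054 CPM in wt embryos 1, 2 and 3. Epor, the receptor for erythropoietin, lay at 193, 180.1 and 251 CPM. Ermap, Cd24a, Aqp1 and Rhag, which encode further proteins of the red cell surface, had means between 429 and 688 TPM. Of the 11 genes in this list, 10 had a mean of at least 1 CPM, and none reached a 2-fold range. Car2, the carbonic anhydrase that is the highest gene of the membrane and skeleton list, had a mean of 1297 TPM, and Ank1 and Sptb, which join the spectrin skeleton to the membrane, had means of 144 and 102 TPM.

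Several heme enzymes were high, while the erythroid form of the first enzyme was low. Alad, Cpox and Urod, which act at later steps of heme synthesis, had means of 544, 493 and 354 TPM. Uros and Fech, also of later steps, were lower, with means of 79.3 and 81.3 TPM. Alas2, the erythroid 5-aminolevulinate synthase that starts the pathway, was at 23.2, 32.2 and 21.1 CPM and had a mean of 36.6 TPM. Alas1, the form used outside red cells, was at 39.4, 304 and 59.0 CPM, so that it was high in wt embryo 2. Per length, Alas1 stood at 22.5, 164 and 33.7 TPM and Alas2 at 34.1, 44.7 and 31.0 TPM, and Alas1 was clearly the higher only in wt embryo 2. Alas1 was the 1 gene of 12 in the heme list with a range of 2-fold or more (7.70-fold), and it followed the embryo order of the myeloid genes below.

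Per length, the 4 adult globin genes had means between 276 TPM (Hba-a2) and 990 TPM (Hbb-bs), in the range of other erythroid genes. The adult beta-globin genes Hbb-bs and Hbb-bt lay at 190, 335 and 140 CPM and at 134, 198 and 87.0 CPM in wt embryos 1, 2 and 3. The alpha-globin genes Hba-a1 and Hba-a2 lay at 95.5, 166 and 110 CPM and at 47.2, 72.4 and 40.7 CPM. All 4 were highest in wt embryo 2, unlike most other erythroid genes. Of the 50-base stretches in the Hba-a1 transcripts, 67.5% also occur in Hba-a2, and for Hbb-bs and Hbb-bt the share is 57.5%, so that these counts can be too low.

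The embryonic globins set wt embryo 3 apart. Hbb-y, the main beta-like globin of the first, yolk sac-derived red cells, was at 13.1, 11.4 and 0.673 CPM. Hba-x and Hbb-bh1, its embryonic companions, were at 2.66, 2.75 and 0.329 CPM and at 2.06, 1.95 and 0.415 CPM. All 3 genes were lowest in wt embryo 3 while wt embryos 1 and 2 were close to each other. Of all beta-globin reads, Hbb-y and Hbb-bh1 made up 4.45%, 2.44% and 0.477%. Hbq1b was under 1 CPM, Hbq1a had a single read in the 3 libraries and Hbb-bh2 had none. Hbb-b1, Hbb-b2 and Ahsp had no row under these names.

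**Figure D2:**
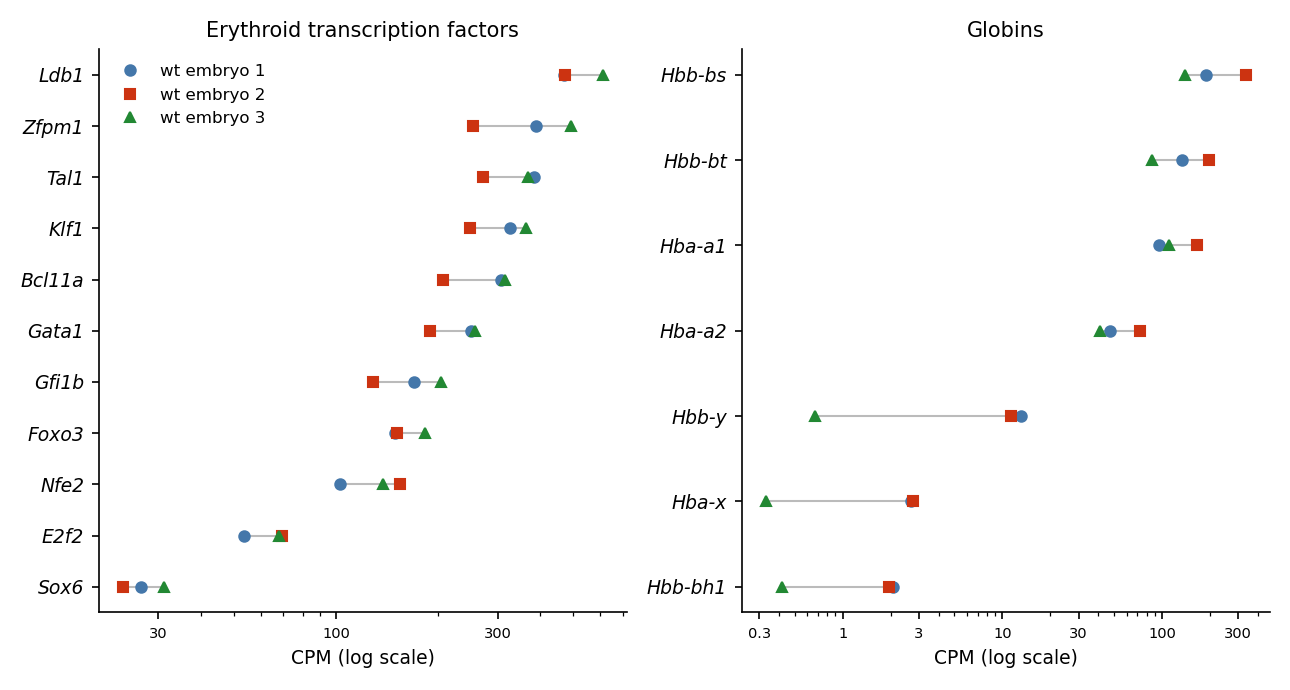
CPM (log axis) of the measured erythroid transcription factors and globins, with 1 symbol for each wt embryo and a grey line from the lowest to the highest. In the left panel every range is under 2-fold and the lowest symbol is wt embryo 2 in 7 of 11 genes, and the 3 embryonic globins at the bottom right are lowest in wt embryo 3.

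Stem and progenitor genes were present at lower levels. Cd34, a surface marker of early progenitors, lay at 94.1, 243 and 128 CPM in wt embryos 1, 2 and 3, and Flt3, the receptor of multipotent and lymphoid-primed progenitors, lay at 17.7, 45.8 and 29.4 CPM. Both were highest in wt embryo 2 and lowest in wt embryo 1, by 2.59-fold. Genes that mark long-term stem cells were close to the limit of the measured set. Mecom was at 3.41, 3.13 and 3.55 CPM, Slamf1 (CD150) at 1.73, 3.27 and 3.38 CPM, and Procr and Ly6a, which encodes Sca1, had means under 1 CPM. Prom1 (CD133) showed the widest range of the list, at 0.357, 33.3 and 2.22 CPM.

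The 7 transcription factors of the stem cell heptad were split by level. Lmo2, Tal1 and Lyl1 had means of 548, 271 and 233 TPM, while Gata2, Fli1, Runx1 and Erg had means between 23.4 and 41.9 TPM. Gata2, Fli1 and Erg reached a 2-fold range and were highest in wt embryo 2. Fli1, for example, lay at 16.9, 51.9 and 18.2 CPM. The other 4 stayed under 2-fold. Megakaryocyte genes were low, with means of 85.6, 42.9 and 34.0 TPM for F2r, Plek and Pf4, and 6 of 18 measured members reached 2-fold. Of all measured genes 14.1% reached 2-fold, and of those between 1 and 10 CPM 34.6%. The widest was Thbs1, the matrix protein thrombospondin, with 14.5, 48.7 and 21.1 CPM.

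Cells in division were a constant feature. All 20 genes of the S phase list and all 20 of the G2 and mitosis list were measured, and none reached a 2-fold range, with median log2 ranges of 0.15 and 0.22. Mcm6 of the replicative helicase was at 810.1, 815 and 803 CPM in wt embryos 1, 2 and 3, and Mki67, the proliferation antigen, was at 1661, 1239 and 1616 CPM. The summed level of the S phase list was 6980, 6596 and 6854 CPM, and that of the G2 and mitosis list 6682, 5996 and 6605 CPM. The gene with the widest range in these 2 lists was Rrm2, a subunit of ribonucleotide reductase, at 1.38-fold. The order of genes with the smallest range among those of at least 100 CPM began with Puf60, Galnt1, Man1b1, Cops3 and Apobec3, each within 1.01-fold.

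Among the 3 embryos the typical gene moved little, but a group of genes moved a lot. The range of a gene was taken as the log2 ratio of its highest to its lowest embryo after adding 0.1 CPM, and a gene was called variable when the fold was at least 2. The median fold over the 11784 measured genes was 1.29, and 5099 genes (43.3%) stayed under 1.25-fold. Variable genes numbered 1660, that is 14.1% of those measured, 543 genes reached 4-fold and 105 reached 16-fold. The share of variable genes was smaller at higher levels, as 34.6% of the genes between 1 and 10 CPM, 9.16% of those between 10 and 100 CPM and 2.66% of those above were variable.

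Wt embryo 2 stood apart from the other pair. Between wt embryos 1 and 3 only 464 genes (3.94%) differed by 2-fold, against 975 (8.27%) between wt embryos 2 and 3 and 1466 (12.4%) between wt embryos 1 and 2. These are the counts without wt embryo 2, without wt embryo 1 and without wt embryo 3. The biological coefficient of variation, the spread between embryos beyond counting error as edgeR estimates it over all measured genes, was 0.318 for the 3 embryos and 0.194 without wt embryo 2. Pearson's r of log2 CPM across genes was 0.983 for wt embryos 1 and 3, 0.963 for 2 and 3, and 0.939 for 1 and 2, where genes are not independent replicates.

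Most variable genes shared a direction. Wt embryo 2 was highest in 1374 of the 1660 variable genes (82.8%), and the order embryo 2, embryo 3, embryo 1 from high to low held for 1245 of them (75.0%). Over all measured genes this order held for 31.0%, and the highest embryo was wt embryo 1 in 26.1%, wt embryo 2 in 43.1% and wt embryo 3 in 30.7% of them. Of the 100 genes with the widest range among those of at least 10 CPM, 92 had this order. The 20 widest ranges at this level were those of Xist and 4 Y chromosome genes, then Camp, S100a8, BC100530, Fcnb, S100a9, Pglyrp1, Gm5483, Stfa1, Prg2, Prom1, Ly6c2, Elane, Epx, Ear6 and Gda. Apart from the sex linked genes, all of these were highest in wt embryo 2, and most encode proteins of granulocytes. Pglyrp1, for example, a bactericidal peptidoglycan recognition protein of neutrophils, lay at 0.375, 42.6 and 2.39 CPM, and Gda, guanine deaminase, lay at 1.32, 85.4 and 6.10 CPM.

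**Figure D3:**
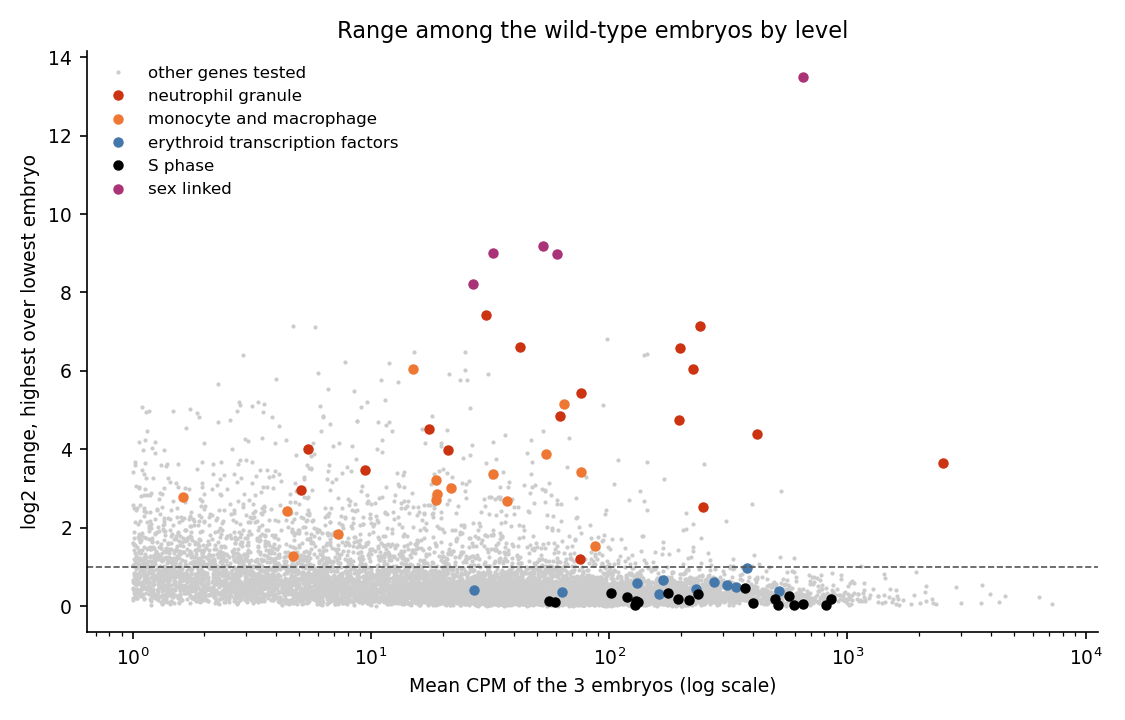
Log2 range among the 3 wt embryos (highest over lowest) against mean CPM (log axis) for each measured gene, with 5 gene lists in colour and a dashed line at the 2-fold limit. Neutrophil granule and monocyte genes lie above the line at every level, the S phase genes and erythroid transcription factors lie below it, and the 5 sex linked genes have the widest ranges, over 8 on the log2 scale.

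Among the 36 gene lists, that of neutrophil granules had the highest median range apart from the sex linked genes. Granule proteins are made in successive waves as a promyelocyte matures to a neutrophil, with the primary granule proteases and Mpo first and the secondary granule proteins later. Of 20 listed genes 17 were measured, and all 17 were variable, highest in wt embryo 2 and lowest in wt embryo 1, against 14.1% variable over all measured genes. Their median log2 range was 4.52, against 0.37 over all measured genes. Of the 17, 15 reached 1 CPM in all 3 libraries, and the others could enter the measured set through wt embryo 2. The 3 that were not measured, Mmp8, Mmp9 and Chil3, had means under 1 CPM.

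Mpo was the most abundant of them per length, with a mean of 2478 TPM, and was accompanied by the other primary granule genes. Mpo lay at 468, 5850 and 1211 CPM in wt embryos 1, 2 and 3. The serine proteases Prtn3, Elane and Ctsg lay at 50.3, 1047 and 150.3 CPM, at 9.19, 613 and 48.7 CPM and at 18.7, 507 and 61.4 CPM. Wt embryo 2 was thus far above both others in each, and wt embryo 3 above wt embryo 1. Ctsc, the peptidase that activates these proteases, had the narrowest range of the list with 51.3, 117 and 57.3 CPM.

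The calprotectin, cathelicidin and ficolin genes spread further. S100a8 and S100a9, the subunits of calprotectin, lay at 4.81, 698 and 20.9 CPM and at 5.79, 566 and 24.7 CPM. Camp, the precursor of the antimicrobial peptide cathelicidin, lay at 0.393, 85.0 and 5.64 CPM, a range of 172-fold and the widest of the list. Fcnb, a ficolin of the lectin pathway of complement, lay at 1.13, 120.5 and 5.52 CPM. The secondary granule genes Ltf, Lcn2 and Ngp were lower per length, with means of 5.01, 6.98 and 26.2 TPM, and had the same embryo order. Their ranges, 7.83-fold, 16.1-fold and 11.0-fold, were narrower than those of Elane (66.1-fold), Ctsg (27.0-fold) and Prtn3 (20.8-fold). This split did not hold across the list, since Mpo (12.5-fold) and Ctsc (2.28-fold) ranged less than Lcn2, and Camp ranged most. Summed over the list, granule genes took 718, 10636 and 1786 CPM, and without Mpo 249.7, 4786 and 575 CPM. In bulk samples such as these, fewer cells of a type and less RNA per cell cannot be told apart.

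The promoters of granule and erythroid genes were searched to set the most variable of the blood lineage lists beside the erythroid genes. RefSeq promoter windows, from 250 bases before to 50 after each listed start, were read on both strands for motifs of the factors named above. The PU.1 motif GAGGAAGT was found for 6 of the 18 granule genes with a window (33.3%), against 3.69% of all 27025 genes. The C/EBP motif TTGCNNAA was found for 7 of 18 (38.9%) against 12.2%, and the RUNX motif TGTGGT for 6 of 18 (33.3%) against 18.9%. The GATA motif AGATAA was found for 4 of 18 (22.2%) against 12.7%, and the CACCC motif CCNCNCCC, of the kind KLF1 binds, for 9 of 18 (50%) against 51.9%. In 33 genes of the erythroid receptor, globin, heme and membrane lists, the GATA motif was found for 9 (27.3%), the CACCC motif for 21 (63.6%), the RUNX motif for 5 (15.2%), the C/EBP motif for 2 (6.06%) and the PU.1 motif for none. In the monocyte and macrophage list the PU.1 motif was found for 1 of 14 genes (7.14%) and the C/EBP motif for 4 (28.6%). In the myeloid factor list these 2 motifs were found for 0 and 2 of 9 genes. In the hepatoblast list they were found for 0 and 11 of 18 genes (61.1% for C/EBP). A match is a description of letters and not a site in use. The following runs are the 100 bases before the start on the gene strand (GRCm38.p6), chosen after the matches were seen. The PU.1, C/EBP, RUNX and GATA motifs are in capitals, and matches of the CACCC motif were not marked. The runs show the PU.1 motif in the neighbouring genes Elane and Prtn3. They show the C/EBP motif in Ltf and Ngp (on the other strand in both), together with a GATA motif in Ltf. The GATA motif is marked in Alas2 (on the other strand) and Kel, which encodes a red cell blood group protein.
Elane, chr10:79886212-79886311, plus strand: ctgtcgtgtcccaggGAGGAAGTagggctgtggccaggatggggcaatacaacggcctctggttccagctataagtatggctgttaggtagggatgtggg
Prtn3, chr10:79879567-79879666, plus strand: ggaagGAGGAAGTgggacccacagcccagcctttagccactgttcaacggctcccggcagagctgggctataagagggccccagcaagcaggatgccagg
Ltf, chr9:111019192-111019291, plus strand: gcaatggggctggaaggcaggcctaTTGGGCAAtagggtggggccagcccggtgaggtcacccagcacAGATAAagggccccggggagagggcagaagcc
Ngp, chr9:110419708-110419807, plus strand: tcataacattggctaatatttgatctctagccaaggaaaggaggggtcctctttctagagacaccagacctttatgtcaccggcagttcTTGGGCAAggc
Alas2, chrX:150547317-150547416, plus strand: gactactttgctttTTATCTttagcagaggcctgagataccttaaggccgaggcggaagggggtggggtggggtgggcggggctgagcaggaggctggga
Kel, chr6:41704326-41704425, minus strand: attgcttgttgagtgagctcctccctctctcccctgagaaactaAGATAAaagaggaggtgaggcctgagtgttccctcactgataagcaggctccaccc
The PU.1 motif begins 85 bases before the start of Elane and 95 before that of Prtn3, and the GATA motif 56 bases before the start of Kel.

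Monocyte genes had the same pattern. All 15 measured genes of 18 listed were variable, highest in wt embryo 2 and lowest in wt embryo 1, with a median log2 range of 2.86. Over all measured genes, 14.1% were variable and 43.1% were highest in wt embryo 2. Of the 15, 13 reached 1 CPM in all 3 libraries, and the others could enter the measured set through wt embryo 2. Lyz2, the lysozyme of myeloid cells, lay at 16.1, 175 and 38.1 CPM. Csf1r, the receptor that drives monocyte and macrophage growth, lay at 11.2, 72.2 and 28.7 CPM. Itgam, which encodes the CD11b that the FL cocktail did not stain for, lay at 6.01, 49.4 and 9.99 CPM. Cst3 was the most abundant member per length, with 49.8, 143 and 69.3 CPM.

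Genes of the macrophages of the fetal liver itself were mostly low. The genes C1qa, C1qb and C1qc, Marco, Hmox1 and Cd5l of the fetal liver macrophage list each stayed under 4.5 CPM in each library. Cd163 and Vsig4 had no read. Only Vcam1 of 9 measured genes was variable, at 1.86, 12.7 and 1.76 CPM, against 14.1% of all measured genes. Of the 9, 4 were highest in wt embryo 2, against 43.1% of all measured genes. Slc40a1, the iron exporter, was the most abundant of the list at 117, 94.2 and 119 CPM.

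**Figure D4:**
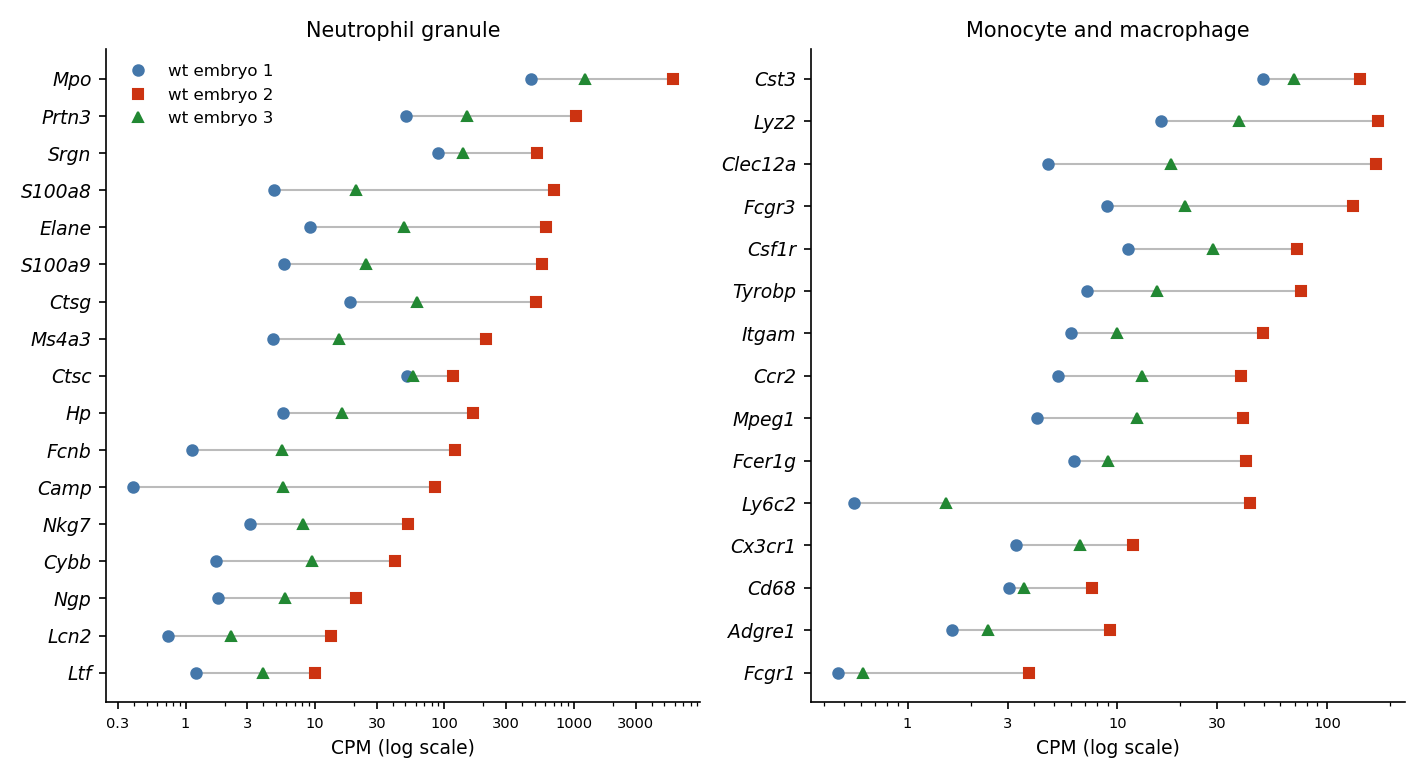
CPM (log axis) of the 17 measured neutrophil granule genes and the 15 measured monocyte and macrophage genes, with 1 symbol for each wt embryo and a grey line from the lowest to the highest. In every row wt embryo 2 is to the right, wt embryo 1 to the left and wt embryo 3 between them.

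The transcription factors and receptors of the myeloid fate followed. Of 11 measured myeloid factors 10 were variable, against 14.1% of all measured genes. All 10 were highest in wt embryo 2, against 43.1% of all measured genes. Of the 11 measured factors, 9 reached 1 CPM in all 3 libraries. Spi1 lay at 14.8, 115 and 32.4 CPM in wt embryos 1, 2 and 3. Cebpa, which starts the granulocyte program, lay at 12.8, 69.2 and 23.9 CPM. Cebpe, required for secondary granules, and Gfi1 lay at 2.34, 43.2 and 4.92 CPM and at 4.32, 80.1 and 13.2 CPM. Cebpe and Gfi1 thus had wider ranges (17.7-fold and 18.1-fold) than Spi1 (7.68-fold) and Cebpa (5.39-fold). Irf8, a factor of the monocyte branch, lay at 11.3, 58.3 and 24.3 CPM. Zeb2 was the exception at 86.3, 110 and 118 CPM.

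Of 16 measured cytokine receptor genes 9 were variable, against 14.1% of all measured genes. Their median log2 range was 1.78, and 0.91 over those with a mean of at least 10 CPM. Csf3r, the receptor for G-CSF, lay at 16.6, 90.0 and 30.8 CPM. Csf2rb, the common beta chain of the receptors for IL-3, IL-5 and GM-CSF, lay at 13.5, 101 and 25.2 CPM. Il7r, a lymphoid receptor, was at 0.197, 3.56 and 0.887 CPM. Epor, Kit and Il1rl1 stayed under 2-fold. Of 13 listed Toll-like receptor genes only 4 were measured, and 2 of these reached 1 CPM in all 3 libraries. All 4 were variable, against 34.6% of the measured genes between 1 and 10 CPM. They were also all highest in wt embryo 2, against 43.1% of all measured genes. A low gene can enter the measured set through its highest embryo, so this count is no independent result. Tlr4, the endotoxin receptor, was at 0.804, 8.72 and 1.65 CPM.

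Mast cell, basophil and eosinophil genes were also drawn along, but not all of them. Of 18 listed genes 11 were measured and 7 were variable, with a median log2 range of 3.19. Only 6 of the 11 reached 1 CPM in all 3 libraries. The others could enter the measured set through their highest embryo, so this count is no independent result. Of all measured genes 14.1% were variable, and of those between 1 and 10 CPM 34.6%. Prg2, the major basic protein of eosinophils, lay at 4.50, 388 and 27.3 CPM, and Epx, eosinophil peroxidase, at 0.947, 67.5 and 5.97 CPM. Hdc, which makes histamine, was at 18.5, 182 and 39.5 CPM. The mast cell genes Cma1 and Tpsb2 and the mast cell factor Mitf stayed under 2-fold and under 5 CPM.

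Of 7 measured globin genes 5 were highest in wt embryo 2, against 43.1% of all measured genes. The other erythroid genes were mostly lowest in wt embryo 2, with small ranges. Over 46 genes of the factor, receptor, heme and membrane lists, 45 were measured. Of these, 2 were variable (Alas1 and Slc4a1), against 14.1% of all measured genes, and the median fold between embryos was 1.39. Wt embryo 3 was highest in 30 and wt embryo 2 lowest in 31 of the 45, against 30.7% highest in wt embryo 3 and 34.2% lowest in wt embryo 2 over all measured genes. Zfpm1 had the widest range among the factors with 388, 253 and 493 CPM. Per length, these 45 genes summed to 12014, 9613 and 13437 TPM in wt embryos 1, 2 and 3, whereas the 43 measured genes of the granule, monocyte and myeloid factor lists summed to 1349, 23446 and 3333 TPM. The erythroid sum thus exceeded the myeloid sum in wt embryos 1 and 3 but not in wt embryo 2. Slc4a1, the anion exchanger band 3, was at 88.7, 192 and 150.1 CPM and went against its list. Many skeleton genes are long, and long genes as a whole were lower in wt embryo 2, as given above. The part of gene length in the levels of the skeleton genes was not tested.

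**Figure D5:**
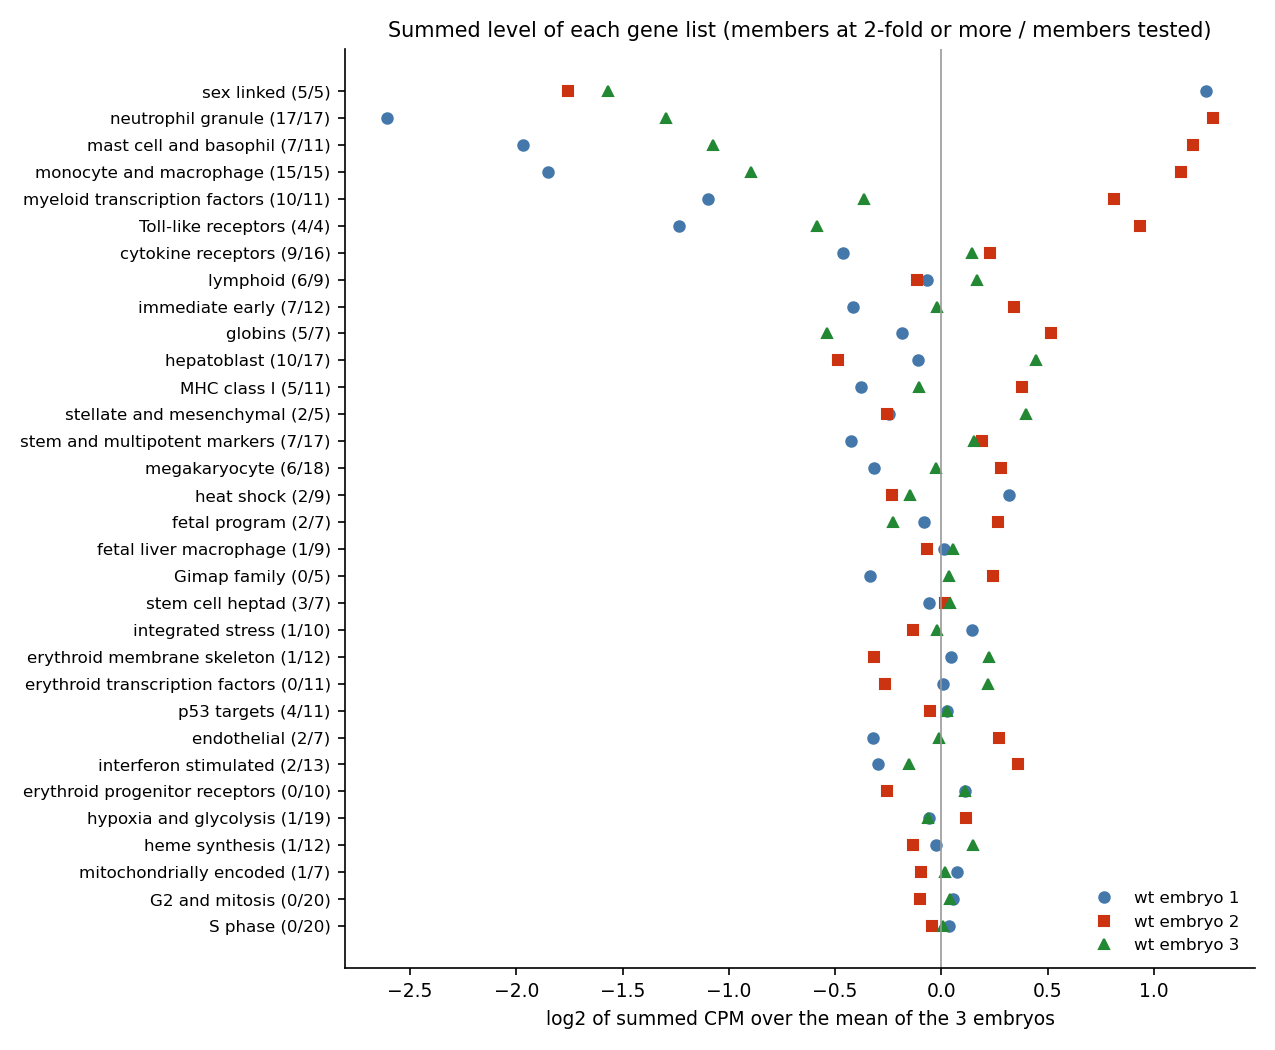
Summed CPM of each gene list in each wt embryo, as the log2 ratio to the mean of the 3 embryos, for the lists with at least 4 measured genes, ordered by the median log2 range of their members, with the number of variable and of measured members in brackets. Below the sex linked list, the myeloid lists have wt embryo 2 far to the right, the erythroid lists other than the globins have it slightly to the left, and the cell cycle lists at the bottom have the 3 symbols close together.

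Genes of other fetal liver cells were detectable, and those of hepatoblasts were highest in wt embryo 3. Of 21 hepatoblast genes 17 were measured, and 10 were variable, against 14.1% of all measured genes. In wt embryo 3, 14 were highest, against 30.7% of all measured genes. Afp, the fetal serum protein of the liver, lay at 74.1, 52.2 and 104 CPM, and Alb, serum albumin, at 70.2, 48.2 and 112 CPM. Hnf4a, the hepatocyte transcription factor, was at 5.17, 4.64 and 7.40 CPM. The whole list summed to 223, 171 and 327 CPM, with Apoc3 at 0. Endothelial genes summed to 87.5, 132 and 109 CPM, mostly from Egfl7 and from Pecam1, which blood progenitors also express, while Cdh5 stayed under 1.5 CPM. Stellate and mesenchymal genes summed to 75.5, 75.0 and 118 CPM, of which Col5a1 alone was 62.1, 52.4 and 98.8 CPM, and Lrat and Lum had no read. The part of such cells in the differences among the embryos was not tested.

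Lymphoid genes were rare. Of 21 lymphoid genes 9 were measured, and apart from Ikzf1 and Tcf3 the highest per length was Cd79b at 4.29, 20.8 and 4.74 CPM. Notch1 and Satb1 lay at 17.1, 58.8 and 30.2 CPM and at 18.7, 50.7 and 30.9 CPM, while Rag2 and Rag1 stayed under 3.1 CPM. Of 18 T and NK cell genes only Lck and Tcf7 were measured, and both stayed under 3.2 CPM.

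The widest ranges of all separated the embryos by sex-linked genes. Xist, the RNA that coats the inactive X chromosome, had 109168 reads in wt embryo 1, 4 in wt embryo 2 and 331 in wt embryo 3, or 1951, 0.0695 and 4.74 CPM. The 4 Y chromosome genes Ddx3y, Eif2s3y, Kdm5d and Uty together had 10, 14026 and 19066 reads. Wt embryo 1 thus expressed Xist without the Y genes, and wt embryos 2 and 3 expressed the Y genes. In wt embryo 3 a trace of Xist, 0.243% of the level in wt embryo 1, stood beside the Y genes. The embryo with the highest myeloid genes and the embryo closest to wt embryo 1 over all genes therefore both had Y chromosome expression.

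Heat shock and chaperone genes were highest in wt embryo 1 in 7 of 9 measured genes, against 26.1% of all measured genes. Hspa8, the constitutive chaperone of the HSP70 family, lay at 2755, 1503 and 1552 CPM, and Hsp90aa1 at 1916, 1093 and 1249 CPM. Only Hsph1 and Hspa1b reached 2-fold, and Hspa1b was at 0.947, 3.39 and 0.930 CPM. Of 19 measured glycolysis and hypoxia genes, 15 were highest in wt embryo 2, against 43.1% of all measured genes. Only Egln3 was variable, against 14.1% of all measured genes. Ldha, lactate dehydrogenase, was at 1209, 1226 and 1113 CPM.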

How the data were processed

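RNA-seq of 3 wt embryos was used. Per the labels and the methods, the authors made libraries with the TruSeq Stranded mRNA kit, aligned reads to GRCm38 with TopHat2 (2.0.10 in the submitters' processing notes) and deposited HTSeq read counts per Ensembl gene and counts per exon bin, without normalization. The 5 rows that name no gene, 46.7% to 53.3% of each file, stayed out of library sizes. CPM and TPM (merged exons of GENCODE M21, GRCm38, 36429 of 38293 IDs matched) were computed here with Python 3.11.15. The spread was estimated with edgeR 4.0.16 (R 4.3.3) and alternatives with DESeq2 1.42.0, and the range was tested on simulated data. The replicates are separate embryos, and their number, 3, limits the precision. The gene lists and the rule for named genes were chosen with earlier results of these data known: the 5 markers Kit, Cd34, Gata1, Mpo and Flt3, the 10 highest genes by CPM and by TPM (exons of at least 300 bases), the 5 highest long noncoding genes, up to 4 highest and 3 widest-ranging members of each list, the 20 widest ranges from 10 CPM, the 5 narrowest from 100 CPM, and all globin and sex linked genes. Other genes named were chosen after their values were seen. Alternatives were TMM or median-of-ratios scaling, other filters, a pseudocount of 1 CPM, a 4-fold limit and leaving out each embryo. Some members of the lists are not reported here by name.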

Additional observations from a re-analysis of the deposited data

How the results depend on the processing

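No paired analysis was possible because the wt libraries form a single group. The 1660 variable genes became 543 at a 4-fold limit. Without a filter on low counts there were 4455 and from a mean of 10 CPM 634, with more and fewer genes entering, and leaving out each embryo gave 464 to 1466. The share of variable genes highest in wt embryo 2, 82.8%, was 80.3% with TMM, 79.8% with median-of-ratios scaling, 60.6% without the filter, 88.3% from 10 CPM and 89.4% with a pseudocount of 1 CPM, and 87.4% to 92.6% when wt embryo 1 or 3 was left out. Of 36 lists, 15 had a median range of at least 2-fold, and 4 to 13 did when an embryo was left out. The biological coefficient of variation of 0.318 was 0.194 to 0.386 with an embryo left out and 0.132 as the median gene-wise estimate of DESeq2. The cause of this last difference was not tested. The summed granule CPM had a mean of 4380 and ran from 1252 (without wt embryo 2) to 6211. The numbers of genes holding 50% of the reads (1050 to 1129) and of genes from 1 CPM (11575 to 11884) moved little when an embryo was left out. After the data were seen, the sex linked genes were left out, with 1655 variable genes, and Mpo was left out of the granule sum, with a mean of 1870 CPM.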

Other observations

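Gene groups not described above also differed among the 3 wt embryos, and none was tested. MHC class I and antigen processing genes were highest in wt embryo 2 in 11 of 11 measured members, against 43.1% of all measured genes. Of the 11, 5 reached 2-fold, against 14.1% of all measured genes. B2m, the light chain of MHC class I, lay at 115, 221 and 133 CPM in wt embryos 1, 2 and 3, and Psmb8, an immunoproteasome subunit, at 14.4, 55.2 and 27.9 CPM. Of 13 measured interferon-stimulated genes 8 were highest in wt embryo 2, against 43.1% of all measured genes, and the list summed to 179, 283 and 198 CPM. Of the 13, 2 were at 2-fold, against 14.1% of all measured genes, among them Ifitm1 at 9.20, 61.4 and 18.6 CPM, while Isg15 stayed under 1 CPM in each library. In the fetal program list, the RNA-binding genes Igf2bp1 and Lin28b were highest in wt embryo 1, at 170.2, 120 and 103 CPM and at 133, 109 and 108 CPM, whereas Lin28a was at 0.983, 18.4 and 1.52 CPM. Of 12 measured immediate early genes 9 were highest in wt embryo 2 and 7 reached 2-fold, and Egr1 was lowest there at 2.18, 0.521 and 2.28 CPM. Among the other lists, 4 of 11 measured p53 target genes, 1 of 10 genes of the integrated stress response, 2 of 3 MHC class II genes and 0 of 5 Gimap genes reached 2-fold, against 14.1% of all measured genes and 34.6% of those between 1 and 10 CPM.

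Further groups were chosen after their values were seen. The stefin A genes of chromosome 16, inhibitors of cysteine proteases with near-identical copies and therefore uncertain counts, summed to 8.08, 798 and 28.5 CPM, with Stfa1 at 4.68, 415 and 14.6 CPM. Eosinophil granule genes summed to 8.56, 599 and 45.2 CPM. RNAs that are not polyadenylated as a rule were highest in wt embryo 3, namely the RNase P RNA Rpph1 at 2.72, 2.57 and 22.4 CPM, Rmrp at 0.304, 0.834 and 18.7 CPM, Rn7sk at 0.590, 2.71 and 15.2 CPM, and the mitochondrial ribosomal RNAs mt-Rnr1 and mt-Rnr2. The mitochondrial leucyl-tRNA synthetase gene Lars2, at 162, 181 and 1238 CPM, shared that embryo, which also had the largest share of reads assigned to no gene feature. The X chromosome partners of the 4 Y genes (Ddx3x, Eif2s3x, Kdm5c and Kdm6a) were highest in wt embryo 1 in 4 of 4, against 26.1% of all measured genes. Eif2s3x lay at 286, 114 and 136 CPM.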
